A study of Mus musculus with 24 samples.

Results

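Malat1, Neat1, Meg3, Rian, Mirg, Miat, Snhg11 and Gas5 are long noncoding RNAs that neurons make in large amounts or keep in the nucleus, and several of them host small RNAs. They were chosen by gene name and not by a cut on a measured value, but with earlier results of these data known. They are 8 of the 55177 genes in the tables. All 8 passed the filter on low counts in the libraries of both ages. In the gene models used here, GENCODE M21, Snhg11 is typed as protein-coding and the other 7 as noncoding.

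The RNA came from primary neurons of mouse cortex at embryonic day 16.5, and the labels' protocols count the cortex of a single embryo as a biological replicate. In total 24 libraries were read, and the study asked how neuronal activity and Smarcc2, a core subunit of the BAF chromatin remodelling complex, change the RNA of these cells. Every culture, at rest or depolarized, had been silenced overnight with 1 µM TTX (tetrodotoxin, a sodium channel blocker) and 100 µM D-AP5 (an NMDA receptor blocker), and KCl was then added at 50 mM for 30 min where cells were to be depolarized. The first experiment used wild-type neurons at 7 days in vitro (DIV7) with 0.1% DMSO and poly(A)-enriched RNA, with 2 libraries at rest and 2 under KCl. The second used neurons at DIV18 and total RNA depleted of rRNA. Its controls carried a non-targeting guide RNA (NT), with 2 libraries at rest and 2 under KCl. Its other cultures carried a guide against Smarcc2 (KO) and 1 of 4 constructs: empty vector (3 libraries at rest, 3 under KCl), wild-type Smarcc2 (2 at rest, 3 under KCl), Smarcc2 S586E (3 at rest only) or Smarcc2 S586A (2 under KCl only). The guides were put into cultured neurons and no clone was grown, so a library can mix edited and unedited cells. Age, RNA selection and guide transduction differ together between the experiments and cannot be told apart, so states and constructs were compared within each experiment.

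Malat1 and Neat1 are neighbouring genes whose RNAs stay in the nucleus, Malat1 in nuclear speckles and Neat1 as the scaffold of paraspeckles. Meg3, Rian and Mirg lie in that order in the imprinted Dlk1-Dio3 domain, where they are made from the maternal chromosome, Rian with box C/D snoRNAs and Mirg with a cluster of miRNAs in its introns. Miat (also called Gomafu) is a nuclear RNA of neurons that binds splicing factors, and Snhg11 and Gas5 are spliced RNAs that carry snoRNAs in their introns, with Gas5 degraded in the cytoplasm by nonsense-mediated decay when it is translated.

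In GRCm38 the members lie as follows. Malat1 (ENSMUSG00000092341.3) is at chr19:5795690-5802672 and Neat1 (ENSMUSG00000092274.3) at chr19:5824708-5845478, both on the minus strand. Meg3 (ENSMUSG00000021268.17) is at chr12:109541001-109571726, Rian (ENSMUSG00000097451.10) at chr12:109603940-109661716 and Mirg (ENSMUSG00000097391.8) at chr12:109729764-109749460, all on the plus strand. Miat (ENSMUSG00000097767.8) is at chr5:112213228-112229395 on the minus strand, Snhg11 (ENSMUSG00000044349.15) at chr2:158375638-158386145 and Gas5 (ENSMUSG00000053332.13) at chr1:161034422-161038539, both on the plus strand. Rian spans 13 annotated snoRNA genes and Gas5 10.

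The sequences that tell the members' forms apart are printed 5′ to 3′ in lower case. For Neat1, a short and a long form share a start, and the last 110 bases of each are shown because the values of the forms differed between states. The long form, Neat1-201, ends at chr19:5824708-5824817 and the short form, Neat1-202, at chr19:5842307-5842416, both on the minus strand of GRCm38. Capitals mark AATAAA, the usual signal for cleavage and polyadenylation.
Neat1-201: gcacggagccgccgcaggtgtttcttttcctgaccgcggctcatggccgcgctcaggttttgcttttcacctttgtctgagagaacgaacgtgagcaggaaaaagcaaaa
Neat1-202: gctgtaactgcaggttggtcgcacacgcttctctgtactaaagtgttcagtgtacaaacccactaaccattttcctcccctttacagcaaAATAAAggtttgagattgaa
AATAAA, read on the RNA strand, stood in the last 40 bases of Neat1-202 and not in those of Neat1-201. Among 137692 transcripts of at least 110 bases, 26.4% held it there, Malat1-201, Meg3-209, Rian-202 and Snhg11-201 among them. A match is a description of the sequence and no measurement of a poly(A) tail.

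Miat carries copies of TACTAAC, the letters of the intron branch point that the splicing factor SF1 binds, and the stretches of its main transcript Miat-201 that hold them are shown because they set Miat apart from the other members. They lie at chr5:112217308-112217457 and chr5:112216753-112216812, minus strand, GRCm38, and capitals mark TACTAAC.
Miat-201, first stretch: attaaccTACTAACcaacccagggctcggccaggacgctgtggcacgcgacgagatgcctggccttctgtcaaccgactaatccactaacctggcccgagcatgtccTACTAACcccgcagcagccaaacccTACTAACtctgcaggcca
Miat-201, second stretch: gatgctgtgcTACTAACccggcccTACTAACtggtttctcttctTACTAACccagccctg
Miat-201 held 6 copies on the RNA strand. Of 1151 transcripts at least as long, 0.261% held at least 6, and the median was 0. The main transcripts of the other members held none except Neat1-201, which held 1.

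Meg3 and Gas5 are shown by their promoters, 250 bases before to 50 after an annotated start, because both hold TGACGTCA in capitals, the full cAMP response element that the activity-regulated factor CREB binds. The windows are from RefSeq (GRCm38.p6) at chr12:109540746-109541045 and chr1:161034916-161035215, both on the plus strand.
Meg3 promoter: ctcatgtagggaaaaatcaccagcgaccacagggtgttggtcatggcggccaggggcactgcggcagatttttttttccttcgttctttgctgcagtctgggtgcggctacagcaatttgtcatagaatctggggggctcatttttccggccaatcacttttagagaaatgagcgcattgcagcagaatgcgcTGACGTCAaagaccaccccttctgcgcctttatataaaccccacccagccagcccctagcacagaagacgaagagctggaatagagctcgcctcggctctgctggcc
Gas5 promoter: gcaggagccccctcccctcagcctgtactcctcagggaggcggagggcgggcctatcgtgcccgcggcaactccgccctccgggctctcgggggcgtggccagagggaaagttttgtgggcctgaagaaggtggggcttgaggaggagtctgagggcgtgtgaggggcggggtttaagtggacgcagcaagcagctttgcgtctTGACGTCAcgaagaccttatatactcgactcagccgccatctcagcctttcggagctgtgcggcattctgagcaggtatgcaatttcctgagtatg
The letters begin 57 bases before the Meg3 start and 46 before the Gas5 start. They read the same on both strands and stood in 1.79% of 32851 windows of this length. The windows matched for Malat1, Rian, Mirg, Miat and Snhg11, and a second window each for Meg3 and Gas5, do not hold these letters, and Neat1 was not matched. A match is a description of the sequence and no measurement of CREB.

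Mirg is shown by some of the mature miRNAs in its span on chromosome 12 (RefSeq, GRCm38.p6, plus strand), where 14 hairpins and 26 mature miRNAs were matched. The first pair shown, at chr12:109735669-109735692 and chr12:109739132-109739152, shares a seed (bases 2 to 8, in capitals). The last one shown, at chr12:109734145-109734166, is a known regulator of dendritic spines in neurons.
mmu-miR-453: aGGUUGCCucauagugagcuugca
mmu-miR-496a-5p: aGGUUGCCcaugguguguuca
mmu-miR-134-5p: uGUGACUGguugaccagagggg
Mature miRNAs and snoRNAs were not measured in these libraries, so the values of Mirg, Rian, Gas5 and Snhg11 are those of the host RNA.

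The libraries held 24536056 to 30135576 estimated counts at DIV7 and 14510199 to 24024959 at DIV18. Smarcc2 stood at 237 to 283 CPM (a gene's counts scaled to the size of the library) in the NT libraries, at 47.1 to 64.1 in the KO libraries with vector and at 737 to 1340 in those with a Smarcc2 construct, as labelled. At rest it had 756 to 816 CPM with the wild-type construct and 1164 to 1276 with S586E. Under KCl it had 737 to 1089 with the wild-type construct and 1303 to 1340 with S586A. The stimulus genes Fos, Fosb, Npas4, Egr1 and Arc rose under KCl, 5 of 5 at DIV7 and 5 of 5 in the response averaged over DIV18 groups. Fos went from 3.65 to 4.47 CPM at rest to 598 to 618 under KCl at DIV7. Among DIV18 groups of 3, the third replicates stood apart in several members, and calls are given with and without them.

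Levels per length are on the TPM scale (counts corrected for transcript length and then for library size). In the poly(A)-enriched RNA of DIV7, Meg3 was the most abundant member, at 1228 to 1731 over the 4 libraries. How fully the enrichment kept each RNA was not tested, so the order is that of the RNA kept. Gas5 (387 to 459) and Rian (370 to 408) overlapped, Malat1 (233 to 307) followed, and Miat (72.2 to 163) and Mirg (61.5 to 105) overlapped. Snhg11 had 29.7 to 46.5 TPM and Neat1 only 0.248 to 2.14. In the total RNA at DIV18 the order began with Malat1, at 436 to 1292 TPM with a median of 823 over 20 libraries, and no other member reached its lowest level. Meg3 (59.8 to 266, median 126), Gas5 (87.5 to 160, median 124) and Rian (83.2 to 179, median 110) overlapped, as did Snhg11 (7.46 to 25.2), Miat (6.92 to 17.1) and Mirg (5.31 to 15.4). Neat1 was again the lowest, at 0.121 to 0.515 TPM. Together the members took 0.562% and 0.551% of the counts in the resting DIV7 libraries and 0.421% and 0.398% in the depolarized ones. At DIV18 the share was between 0.336% and 0.912%. The plots of levels by library show both ages in CPM.

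**Figure D1:**
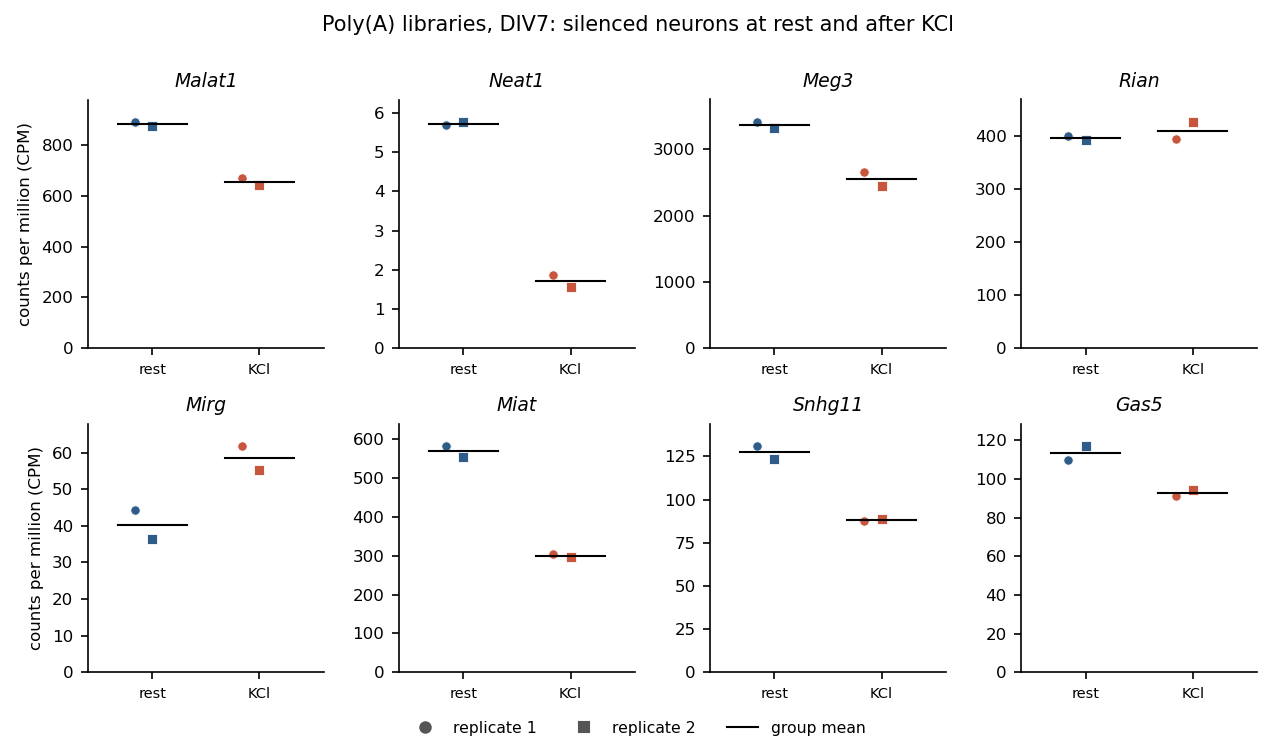
CPM of the 8 RNAs (1 panel each, own axis from 0) in the 4 poly(A) libraries of DIV7 neurons at rest (blue) and after KCl (red). Symbols are single libraries by replicate number and the black line is the group mean; 6 RNAs were lower in both depolarized libraries, Mirg was higher and Rian overlapped, where 30.7% of all genes tested were lower without overlap and 28.5% higher.

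In the DIV7 neurons, 30 min of KCl lowered 6 of the 8 RNAs and raised 1. Miat and Neat1 fell furthest, Snhg11, Malat1, Meg3 and Gas5 fell by smaller amounts, Mirg rose, and Rian did not pass the test. By edgeR's quasi-likelihood test at a Benjamini-Hochberg adjusted p under 0.05, 17.0% of 19822 genes were called in this comparison (9.67% lower, 7.34% higher). The median log2 fold change was -0.41 over the 8 members and -0.001 over all genes tested. With 2 libraries a state, full separation was common: 30.7% of the 19822 genes had both depolarized libraries below both resting ones, as 6 members did, and 28.5% had them above, as 1 did.

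Among the nuclear RNAs, Malat1 had 889 and 872 CPM at rest and 668 and 642 under KCl. Both depolarized libraries were below both resting ones, and Malat1 fell by 0.43 on the log2 scale (SE 0.037, adjusted p = 0.00092). With offsets for the transcript length in each library its log2 fold change was -0.27 (adjusted p = 0.023).

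Neat1 had 5.68 and 5.76 CPM at rest and 1.86 and 1.57 under KCl, and its groups did not overlap. It fell by 1.73 on the log2 scale (SE 0.17, adjusted p = 0.0015). These levels rest on 143 to 162 counts at rest and 43 to 55 under KCl. With the length offsets the log2 fold change was -3.01, and the short form held a smaller share of the counts under KCl than at rest.

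Miat had 581 and 554 CPM at rest and 304 and 296 under KCl. No library of one state came near the other, and the log2 fold change was -0.92 (SE 0.042, adjusted p = 4.8e-05), the lowest adjusted p among the members.

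In the imprinted domain the 3 RNAs went different ways. Meg3, which lies first in the order of transcription, had 3412 and 3322 CPM at rest and 2663 and 2447 under KCl, and fell by 0.40 on the log2 scale (SE 0.044, adjusted p = 0.0020). Rian, the snoRNA host in the middle, had 399 and 393 CPM at rest and 394 and 426 under KCl, so the states overlapped (log2 fold change 0.05, SE 0.048, adjusted p = 0.53). Mirg, the miRNA host at the end, had 44.4 and 36.3 CPM at rest and 61.8 and 55.1 under KCl. Both depolarized libraries were above both resting ones, and Mirg rose by 0.53 (log2, SE 0.10, adjusted p = 0.015). Without the second resting library its log2 fold change was 0.40 and its call was lost (adjusted p = 0.054).

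Among the snoRNA hosts, Snhg11 had 131 and 124 CPM at rest and 87.7 and 88.6 under KCl. The groups did not overlap, and it fell by 0.53 on the log2 scale (SE 0.051, adjusted p = 0.0013). Gas5 had 110 and 117 CPM at rest and 91.3 and 94.0 under KCl, again without overlap, and fell by 0.29 (log2, SE 0.052, adjusted p = 0.012). Its call was lost with length offsets (log2 fold change -0.11, adjusted p = 0.33) and without the second resting library (-0.25, adjusted p = 0.063).

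Neuron markers summed to 3916 to 4077 CPM in the DIV7 libraries. Of the 8 neuron markers, Map2 rose by 0.20 (log2) and Tubb3 fell by 0.53, and of 6 astrocyte markers Slc1a3 fell by 0.22 and Gfap by 0.49. The summed astrocyte markers were at 249 to 280 CPM at rest and 212 to 230 under KCl. Their part in the members' changes was not tested. In bulk RNA, fewer cells of a type and less RNA per cell cannot be told apart.

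The transcripts of the members moved unequally at DIV7. Of the 87 annotated transcripts 64 passed the filter, and 6 were called, 5 lower and 1 higher, where 1.36% of 53122 transcripts were called in all (0.909% lower, 0.45% higher). The test does not hold the error of assigning reads among overlapping transcripts.

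For Neat1 the short form was called and the long form was not. Neat1-202 had 87.2 and 74.1 estimated counts at rest and 5.21 and 7.11 under KCl, and fell by 3.77 on the log2 scale (adjusted p = 0.045). Neat1-201, the long form that builds paraspeckles, had 74.5 and 68.4 counts at rest and 50.1 and 36.2 under KCl and was not called (log2 fold change -0.79, adjusted p = 0.22). The share of Neat1 counts given to Neat1-202, whose printed end holds AATAAA, was 53.9% and 52.0% at rest and 9.42% and 16.4% under KCl. The difference between the forms was not tested.

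For Malat1 and Miat a single transcript held nearly all counts and was called lower. Malat1-201 held 98.3% of Malat1 on average at DIV7 (log2 fold change -0.39, adjusted p = 0.044), and Miat-201, which holds the TACTAAC copies, 94.5% of Miat (-0.89, adjusted p = 0.019).

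In the imprinted domain, Meg3-207 fell from 6198 and 5332 counts at rest to 4238 and 3988 under KCl (log2 fold change -0.54, adjusted p = 0.035). The main form Meg3-209, with 70.6% of Meg3 counts, had a log2 fold change of -0.37 and was not called (adjusted p = 0.056). Within Rian, 2 minor forms moved in opposite directions. Rian-213 rose from 93.6 and 100.0 counts to 332 and 318 (log2 fold change 1.68, adjusted p = 0.049), and Rian-204 had 171 and 113 counts at rest and was listed at 0 in both depolarized libraries, at least 104-fold lower against a floor of 3 counts over the group. Its largest forms, Rian-202 with 64.1% of counts and Rian-208 with 21.4%, were not called.

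For Mirg, Mirg-208 had 149 and 97.3 counts at rest and 486 and 335 under KCl (log2 fold change 1.69), and was not called (adjusted p = 0.066). Its share of Mirg was 11.8% and 10.8% at rest and 26.6% and 22.1% under KCl. Mirg-201 went from shares of 32.7% and 28.3% to 17.6% in both, with a log2 fold change of its counts of -0.23 (adjusted p = 0.62). These shares are descriptions of how reads were divided among the annotated forms.

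Gas5 and Snhg11 held less of their counts in transcripts typed as retained introns under KCl. Over its 20 such transcripts, Gas5 had 47.8% and 53.3% at rest and 37.5% and 37.9% under KCl, and the spliced Gas5-210 went from 29.4% and 36.3% to 42.9% and 43.7%. In counts, Gas5-210 had a log2 fold change of 0.14 (adjusted p = 0.66) and the retained-intron form Gas5-222 one of -0.91 (adjusted p = 0.082), and neither was called. Snhg11 had 3.82% and 3.94% at rest and 1.93% and 2.08% under KCl over 2 such transcripts. Over whole libraries the retained-intron share moved the same way, from 3.83% and 3.87% at rest to 2.68% and 2.71% under KCl. Its part in the fall of Gas5 and Snhg11 was not tested.

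**Figure D2:**
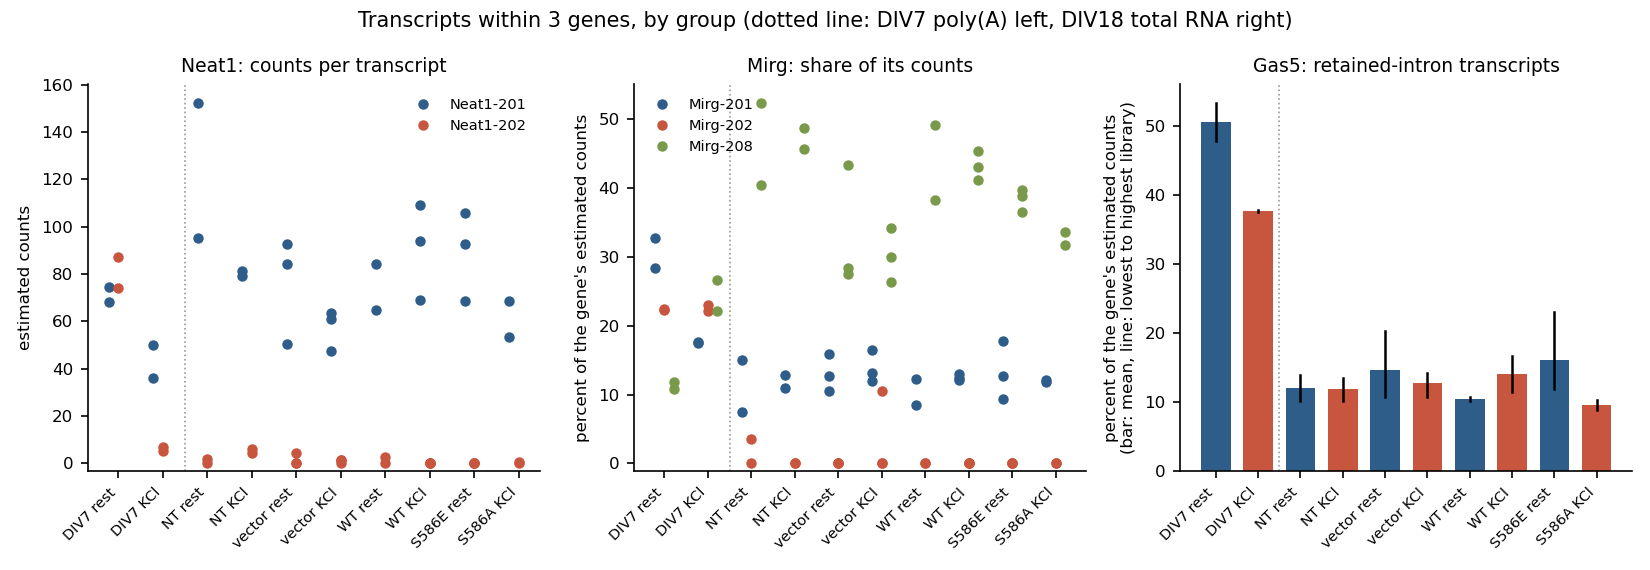
Transcript forms by group. The left panel shows estimated counts of Neat1-201 and Neat1-202 and the middle one the percent of Mirg counts in Mirg-201, Mirg-202 and Mirg-208, each point a library. The right panel shows the percent of Gas5 counts in retained-intron transcripts, with bars for group means and lines from the lowest to the highest library. Neat1-202 dropped from a mean of 80.7 counts to 6.16 under KCl at DIV7.

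At DIV18 the same forms had other shares, in RNA selected another way. Neat1-202 held 0 to 7.17% of Neat1, with a mean of 1.15 counts, and Neat1-201 a mean of 80.9 counts. Gas5-210 held 67.4% to 80.1% of Gas5, and Gas5 retained-intron transcripts 8.77% to 23.0%. Mirg-208 held 26.3% to 52.4% of Mirg. Malat1-201 (96.9%), Meg3-209 (77.5%), Rian-202 (66.2%), Miat-201 (85.4%) and Snhg11-201 (89.5%) remained the largest form of their gene on average.

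**Figure D3:**
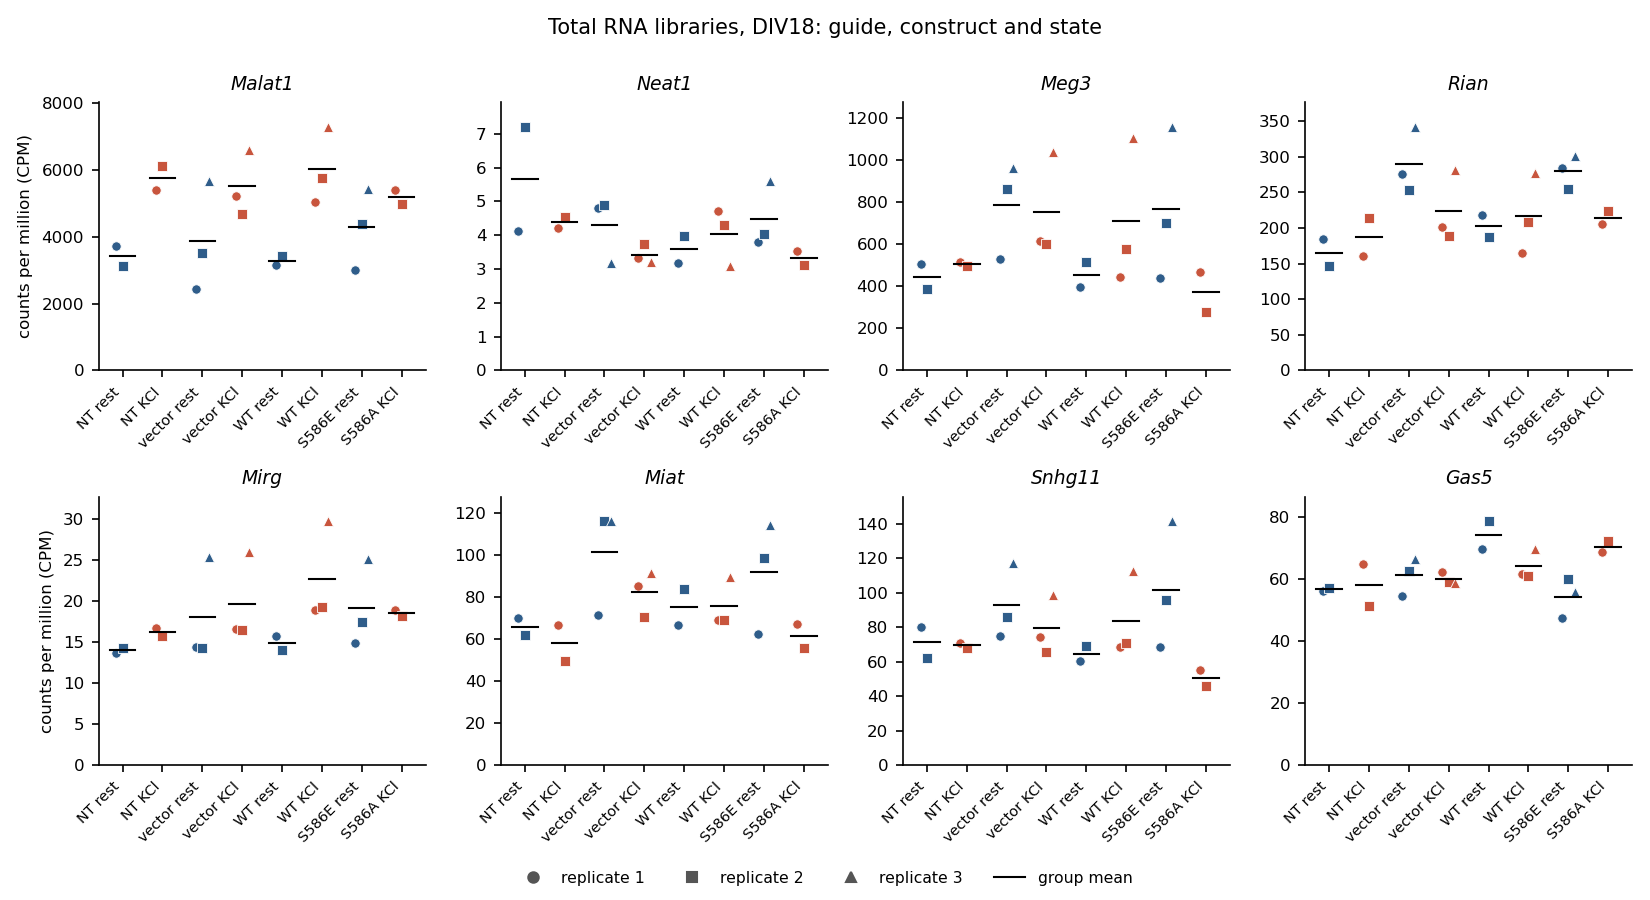
CPM of the 8 RNAs (1 panel each, own axis from 0) in the 20 total RNA libraries of DIV18 neurons by group, at rest (blue) or after KCl (red). Circles, squares and triangles are replicates 1, 2 and 3 and the black line is the group mean. Malat1 under KCl lies above rest in the NT and wild-type groups, and the triangles are the highest of their group in most panels.

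In the DIV18 neurons KCl raised Malat1 in the response averaged over the NT, KO with vector and KO with wild-type groups, and no other member was called. The averaged log2 fold change of Malat1 was 0.71 (SE 0.15, adjusted p = 0.046 by edgeR's quasi-likelihood test), and 0.449% of 20940 genes were called (0.368% higher). The members' median was 0.002 and that of all genes -0.002.

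Malat1 had 3706 and 3132 CPM in the NT libraries at rest and 5386 and 6122 under KCl. With vector it had 2435, 3522 and 5667 CPM at rest and 5215, 4682 and 6598 under KCl. With wild-type Smarcc2 it had 3162 and 3409 CPM at rest and 5036, 5743 and 7279 under KCl. All depolarized libraries were above all resting ones in the NT and wild-type groups, as they were for 16.7% and 11.3% of genes, and with vector the third resting library lay inside the depolarized range.

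Within single groups none of the 8 RNAs was called. For Malat1 the log2 fold change was 0.75 in NT (adjusted p = 1.0), 0.50 with vector (adjusted p = 0.48) and 0.87 with wild-type Smarcc2 (adjusted p = 0.74). In these comparisons edgeR called 0.00955%, 0.0716% and 0.043% of all genes, and DESeq2 called 0 of 8 members in each. At an unadjusted p under 0.05 stood 1 member in NT (Malat1), 2 with vector (Malat1 and Rian, the latter at -0.37) and 2 with wild-type Smarcc2 (Malat1 and Mirg, the latter at 0.60). The response of Malat1 differed by -0.25 between vector and NT and by 0.37 between wild-type Smarcc2 and vector, and no member was called in either difference (0.0% of genes in both, with 0 members at an unadjusted p under 0.05 and 0 by DESeq2).

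The averaged call of Malat1 was near the threshold. It was lost on leaving out any of 14 of the 15 libraries (log2 fold change 0.63 to 0.84, adjusted p 0.051 to 0.19 where lost), and it was kept without the third resting vector library (adjusted p = 0.0035). Without the third replicates it was 0.73 (adjusted p = 0.0034).

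The other 7 RNAs had averaged log2 fold changes between -0.18 (Neat1) and 0.31 (Mirg) at DIV18. Mirg had 13.7 and 14.3 CPM at rest and 16.7 and 15.7 under KCl in NT, and 15.8 and 14.1 at rest and 18.9, 19.3 and 29.7 under KCl with wild-type Smarcc2. The states did not overlap in these groups, but did with vector, where its resting libraries had 14.4, 14.3 and 25.4 CPM and its depolarized ones 16.6, 16.4 and 26.0, and the averaged adjusted p was 0.64. Miat and Gas5, which fell at DIV7, had averaged log2 fold changes of -0.16 (adjusted p = 0.83) and -0.07 (adjusted p = 0.86). By transcript, 0 of 66 tested were called in the averaged response by edgeR, with 13 at an unadjusted p under 0.05, against 0.0518% of 59803 called. Malat1-201 had 0.72 (adjusted p = 0.24).

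The responses at the 2 ages were compared in 1 edgeR fit of all 24 libraries, an interaction added after the data had been seen. The difference, DIV7 minus the averaged DIV18 response, was -1.12 for Malat1 (log2, SE 0.31, adjusted p = 0.043) and -1.54 for Neat1 (SE 0.32, adjusted p = 0.0062), and 2 of 8 members were called, both lower, against 4.06% of 22459 genes (2.99% lower). Malat1 had been called lower at DIV7 and higher at DIV18, and Neat1 lower at DIV7 and not called at DIV18. The short form Neat1-202 held 32.9% of Neat1 counts on average at DIV7 and 1.42% at DIV18. For Neat1 the contrast therefore compares unlike mixtures of forms. Without the third replicates the differences were -1.14 and -1.55, both called. The call of Malat1 was lost with DESeq2's size factors (-1.09, adjusted p = 0.051) and with length offsets (-0.88, adjusted p = 0.13). For Miat the difference was -0.75 (adjusted p = 0.13). Against the NT response alone, the difference was -1.16 for Malat1 (adjusted p = 0.16) and -1.35 for Neat1 (adjusted p = 0.098), and 0 members were called by edgeR, 3 at an unadjusted p under 0.05 and 1 by DESeq2, Neat1 (1.82% of genes by edgeR). Age, poly(A) selection and guide transduction differ with this contrast and cannot be told apart.

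**Figure D4:**
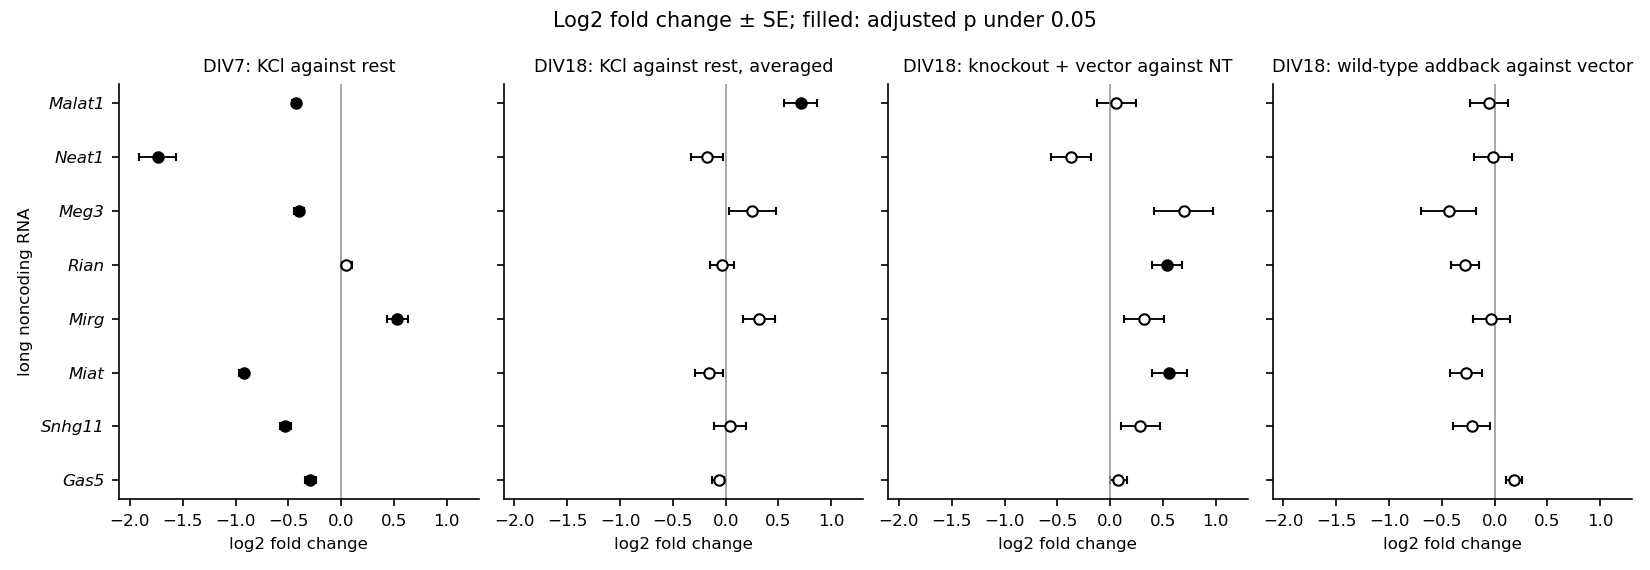
Log2 fold changes of the 8 RNAs with their standard errors in the DIV7 response, the DIV18 responses and the knockout comparisons. Filled points passed an adjusted p under 0.05 in edgeR's quasi-likelihood test; Malat1 is below 0 at DIV7 and above 0 at DIV18.

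Loss of Smarcc2 was read from the KO libraries with vector against NT, and Rian and Miat were higher. Averaged over rest and KCl, Rian rose by 0.53 (log2, SE 0.14, adjusted p = 0.019) and Miat by 0.56 (SE 0.16, adjusted p = 0.033), so 2 of 8 members were called, both higher, where 11.2% of 20940 genes were called and 4.21% higher. The members' median was 0.30, that of all genes 0.017.

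Rian had 184 and 147 CPM in NT at rest and 276, 254 and 342 with vector. All 3 KO libraries were above both NT ones, as for 16.1% of genes, and Rian rose by 0.81 at rest (log2, SE 0.20, adjusted p = 0.022), the 1 of 8 members called there, against 5.9% of genes (2.13% higher). Under KCl it had 161 and 213 CPM in NT and 201, 189 and 282 with vector, and the groups overlapped. The resting call was lost without the second NT library (log2 fold change 0.65, adjusted p = 0.35) or the third vector library (0.68, adjusted p = 0.068). The averaged call was lost without the second resting NT library (0.46, adjusted p = 0.11) or the first depolarized one (0.44, adjusted p = 0.10). Without the third replicates both calls were kept, at 0.68 at rest (adjusted p = 0.015) and 0.37 averaged (adjusted p = 0.030).

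Miat had 70.0 and 61.6 CPM in NT at rest and 71.4, 116 and 116 with vector. Under KCl it had 66.8 and 49.3 CPM in NT and 85.2, 70.4 and 91.2 with vector. Every KO library was above both NT libraries of its state, an order that 16.1% of genes had at rest and 17.3% under KCl, though the lowest resting KO library was close to the NT one at 70.0. The call was lost on leaving out 7 of 10 libraries 1 at a time (adjusted p 0.061 to 0.16) and without the third replicates (log2 fold change 0.47, adjusted p = 0.078).

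Meg3 had 505 and 387 CPM in NT at rest and 530, 862 and 962 with vector, and 514 and 496 under KCl against 617, 604 and 1037. The groups did not overlap in either state, but the vector libraries differed among themselves and Meg3 was not called (averaged log2 fold change 0.69, SE 0.27, adjusted p = 0.11). Neat1 had the 1 negative value of the 8, -0.37 (adjusted p = 0.22). Under KCl alone 0 of 8 were called by edgeR and by DESeq2, with 1, Miat at 0.50, at an unadjusted p under 0.05 (2.67% of genes called). Of the members' 66 tested transcripts 0 were called in the averaged comparison by edgeR, with 19 at an unadjusted p under 0.05, against 1.18% of transcripts called. Among them Miat-201 had 0.59 (adjusted p = 0.17), Rian-208 had 0.86 (adjusted p = 0.097) and Rian-202 had 0.43 (adjusted p = 0.28).

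Glial markers moved with the same contrast. Astrocyte markers summed to 221 to 534 CPM in NT and 79.5 to 321 with vector, and 4 of 6 were called lower (median log2 fold change -1.07). Oligodendrocyte lineage markers summed to 131 to 213 CPM in NT and 114 to 152 with vector, with 5 of 8 called lower (median -1.64) and Sox10 at 0 in the 3 resting vector libraries. Of 8 neuron markers 1 was called, Snap25 at -0.26. Microglia markers were low, at 3.55 to 8.64 CPM summed over DIV18 groups. The share of counts in retained-intron transcripts of the whole library moved with it too. It was 1.49% to 1.61% in the 4 NT libraries, 1.56%, 1.88% and 1.89% with vector at rest and 1.78%, 1.69% and 2.06% with vector under KCl. At rest the vector library with the lowest share was also the one with the lowest Miat (71.4 CPM), and under KCl the lowest share and the lowest Miat (70.4 CPM) were again in 1 library. For Rian this was so under KCl (189 CPM), but at rest the vector library with the lowest share had 276 CPM and another had 254. The part of the glial markers and of this share in the values of Rian and Miat was not tested.

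Adding wild-type Smarcc2 back gave no call in a member. At rest Rian had 218 and 187 CPM with wild-type Smarcc2, below the 254 to 342 of the vector libraries and above the 147 to 184 of NT. Without overlap, 3 of 8 members lay below the vector libraries at rest, Meg3, Rian and Snhg11, and 1 above, Gas5. Of all genes, 12.4% lay below and 13.7% above. The log2 fold change of Rian against vector was -0.52 (SE 0.20, adjusted p = 0.33), and -0.28 averaged over states (adjusted p = 0.40). At rest Meg3 had -0.79 and Snhg11 -0.52, and neither was called. Miat, at 66.6 and 83.7 CPM at rest, overlapped the vector libraries. Gas5 had 69.7 and 78.7 CPM at rest against 54.7, 62.8 and 66.4 with vector, a log2 fold change of 0.28 (adjusted p = 0.36). By edgeR and by DESeq2, 0 of 8 were called at rest, under KCl and averaged, against 0.0143%, 0.00955% and 0.138% of genes by edgeR. At an unadjusted p under 0.05 stood 2, 0 and 2 members, Rian and Gas5 where there were any. These comparisons share the vector libraries with the knockout comparison, and those with NT share the NT libraries. Against NT, averaged over states, wild-type Smarcc2 gave 0 of 8 calls by both tools (1.91% of genes by edgeR), with Gas5 at 0.26 (unadjusted p = 0.0049, adjusted p = 0.12).

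The S586E and S586A forms were measured in 1 state each. Smarcc2 RNA was higher with each of them than with wild-type Smarcc2 in the same state. Against wild type, the substitution and the level of Smarcc2 therefore cannot be told apart. At rest Gas5 had 47.3, 60.0 and 55.7 CPM with S586E and 69.7 and 78.7 with wild-type Smarcc2. The groups did not overlap, as for 16.4% of genes in that direction, and the log2 fold change was -0.45 (SE 0.11, adjusted p = 0.13 by edgeR, 0.022 by DESeq2). In that comparison edgeR called 0 of 8 members and 0.0% of genes, with Rian (0.46), Snhg11 (0.65) and Gas5 at an unadjusted p under 0.05, and DESeq2 called Gas5 and 319 genes in all. Rian with S586E, at 284, 255 and 301 CPM, lay above both wild-type libraries, as 14.9% of genes did, and within the range of the vector libraries. Against vector, S586E gave 0 of 8 calls by both tools, 0 at an unadjusted p under 0.05 and member values between -0.17 and 0.14 (0.0191% of genes by edgeR).

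With S586A under KCl, Meg3 had 467 and 277 CPM, against 446, 576 and 1105 with wild-type Smarcc2 and 617, 604 and 1037 with vector. The S586A libraries overlapped the wild-type ones and lay below all vector ones. The log2 fold change was -0.93 against wild type (adjusted p = 0.55) and -1.02 against vector (adjusted p = 0.28). Snhg11 had 55.0 and 45.8 CPM, below the 68.2 to 112 of wild type and the 65.8 to 98.5 of vector, at -0.73 (adjusted p = 0.52) and -0.65 (adjusted p = 0.30). Without overlap, 3 of 8 members lay below wild type (Mirg, Miat and Snhg11) and 3 below vector (Meg3, Miat and Snhg11). Of all genes, 13.7% lay below wild type without overlap and 16.1% below vector. In both comparisons 0 of 8 were called by edgeR and by DESeq2, and 2, Meg3 and Snhg11, stood at an unadjusted p under 0.05 (0.0% and 0.00955% of genes called by edgeR).

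In the 4 groups of 3, the third replicate stood high for 6 of the 8 members, and not for Neat1 or Gas5. The third replicate was the highest of 3 in 4 of 4 groups for Malat1, Meg3, Rian, Mirg and Snhg11, in 3 for Miat and in 2 for Gas5, while for Neat1 it was the lowest in 3. Of the 20940 genes tested, 7.44% had it highest in all 4 groups and 14.6% in 3. Its CPM divided by the mean of the first 2 was 1.38 to 2.16 for Meg3, 1.33 to 1.90 for Malat1, 1.56 to 1.77 for Mirg, 1.41 to 1.73 for Snhg11 and 1.12 to 1.48 for Rian. For Miat it was 1.17 to 1.42 and for Gas5 0.969 to 1.14. NT, wild-type Smarcc2 at rest and S586A have 2 replicates only, so in comparisons with these groups the third replicates stand on 1 side.

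**Figure D5:**
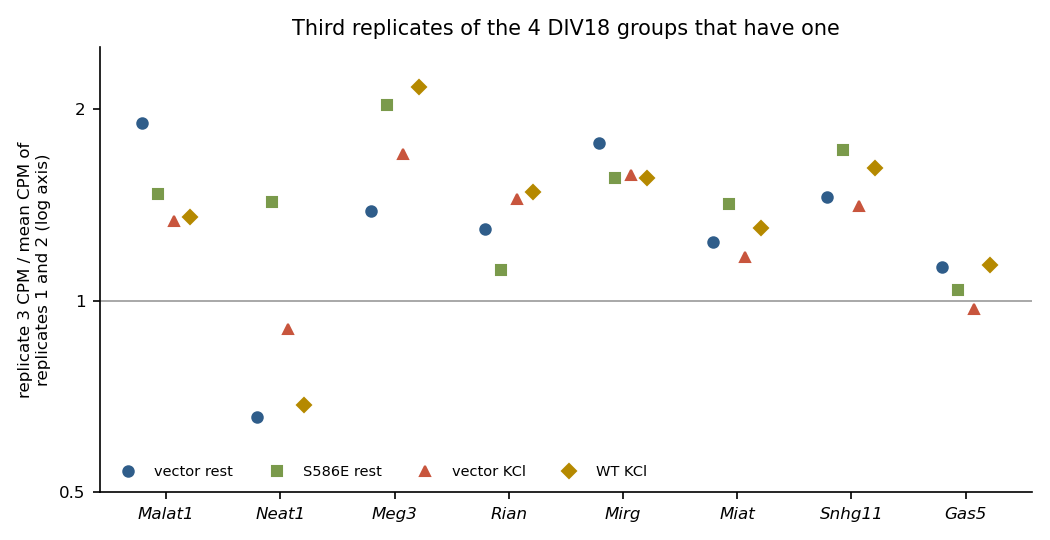
CPM of the third replicate divided by the mean of replicates 1 and 2, on a log axis, for each of the 8 RNAs in the 4 DIV18 groups of 3. The line at 1 marks no difference; all points of Meg3, Malat1, Mirg, Snhg11, Rian and Miat lie above it, between 1.12 and 2.16.

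Over the 20 DIV18 libraries, 4 features of the whole library were set beside the members. The share of counts in retained-intron transcripts ran from 1.41% to 2.06%. Pearson's r with log2 CPM was 0.89 for Meg3, 0.80 for Miat, 0.77 for Snhg11, 0.71 for Mirg, 0.52 for Malat1, 0.39 for Rian, 0.14 for Gas5 and -0.071 for Neat1. The share of other noncoding RNAs, without the members, ran the other way for Mirg (-0.50), Malat1 (-0.50) and Gas5 (-0.50), with -0.20 for Meg3, -0.16 for Miat, -0.19 for Snhg11, 0.14 for Rian and 0.17 for Neat1. For the share of the mitochondrial genome r was 0.54 for Mirg, -0.37 for Neat1 and 0.19 to 0.39 for the other 6, and for the total count it ran from -0.43 (Rian) to 0.27 (Neat1). The points are libraries that share groups, replicate numbers and depth, and the part of RNA quality or nuclear RNA content was not tested.

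Between members, r over the same 20 libraries was 0.93 for Meg3 and Snhg11, 0.84 for Meg3 and Miat and 0.81 for Miat and Snhg11. The neighbours of the imprinted domain were less alike, with 0.62 for Meg3 and Rian, 0.67 for Meg3 and Mirg and 0.53 for Rian and Mirg, while Malat1 and Mirg had 0.77. Among 15135 genes with a mean of at least 1 CPM, those most like Meg3 were Kcnq1ot1 (r = 0.94), an imprinted antisense RNA, A230057D06Rik (0.94) and Gm47031 (0.93). Those most like Snhg11 were Meg3, Kcnq1ot1 (0.92) and 3110039I08Rik (0.92), those most like Malat1 Cntrl (0.89), Adamts7 (0.88) and Irf3 (0.86), and that most like Rian was Rbm5 (0.93). For Gas5 it was Shmt2 (0.86), a mitochondrial serine enzyme. Each r is a description over libraries that share their groups and depth.

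Lists of genes of the same roles, some with members among them, are set against 17.0% of all genes called at DIV7 and 11.2% in the averaged knockout comparison. The 6 tested genes of the Dlk1-Dio3 domain include the members Meg3, Rian and Mirg. Of the 6, 3 were called at DIV7, Meg3 and Rtl1 (log2 fold change -1.21) lower and Mirg higher, with a median of -0.17. Outside the members only Rtl1 was called. In the averaged knockout comparison 2 of 6 were called, both higher, the member Rian and Dlk1 (1.11, adjusted p = 0.010), with a median of 0.45, members included. Dlk1, a paternally expressed membrane protein, had -0.78 when wild-type Smarcc2 was added back and was not called. Of 7 other imprinted transcripts 0 were called at DIV7 by edgeR, with 2 at an unadjusted p under 0.05, and 2 in the knockout comparison, H19 lower (-2.00) and Peg3 higher (0.39), and Peg3 was called lower with wild-type Smarcc2 against vector (-0.40, adjusted p = 0.032).

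Of 12 paraspeckle proteins, the partners of Neat1, 0 were called at DIV7 by edgeR (3 at an unadjusted p under 0.05) and 1 in the knockout comparison (Taf15, 0.32). A list of 17 held proteins of the nuclear speckles, where Malat1 sits, and some other splicing factors. Of these, 3 were called at DIV7, Srrm2 (0.38), Srsf5 (0.17) and Sf3b1 (0.15), all higher. That is near the 17.0% of all genes, and the list median was 0.05. In the knockout comparison Qk, listed as a splicing factor and not a marker of speckles, fell by 0.71, the 1 of 17 called.

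Of 16 snoRNA host genes, 6 were called at DIV7, 2 of them the members Snhg11 and Gas5, against the 17.0% of all genes. Besides Snhg11 and Gas5, Snhg20 fell by 2.06, Snhg17 by 1.32 and Snhg12 by 0.38, while Snhg1 rose by 0.32, and the list median was -0.03. In the knockout comparison 0 of 15 were called by edgeR, with 2 at an unadjusted p under 0.05. Of 8 factors of nonsense-mediated decay, the pathway that degrades Gas5, Smg1 rose by 0.21 at DIV7 and no other was called. Of 10 other noncoding RNAs of the brain, tested with Miat among them, Miat was the 1 called at DIV7, and in the knockout comparison Pvt1 rose by 0.37 and 1700020I14Rik fell by 0.24 beside it. In the averaged DIV18 response to KCl edgeR called 0 genes of these lists, with 0 to 3 per list at an unadjusted p under 0.05.

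Where a member overlaps another gene, reads could be counted for either, since no strand setting is given in the sources used here. Gm37376 lies opposite Malat1 with 16.7 to 19.2 CPM at DIV7 and 0 to 12.2 at DIV18, and Zbtb37 lies opposite Gas5 with 66.9 to 86.4 and 24.6 to 39.7. Gm26953 lies opposite Miat at no more than 1.47 CPM, and Gm26945 lies on the strand of Rian at no more than 9.34.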

How the data were processed

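The authors deposited, per the file headers, 1 table per library of estimated counts, effective lengths and TPM for 142552 transcripts. FastQC, cutadapt and kallisto are named in the submitters' processing notes, without versions. The transcript index, genome build and strand setting are not given in the sources used here. The 24 libraries were mapped to groups from their labels.

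Transcript IDs were joined to GENCODE M21, where 99.2% matched, and the 1123 others made up no more than 0.467% of any library. For 14 of the 20 Rian transcripts the version differed, so no Rian transcript coordinates are given. Estimated counts were added up by gene, then rounded. Genes and transcripts were tested with edgeR 4.0.16 (R 4.3.3, limma 3.58.1) by glmQLFit and glmQLFTest, with TMM, filterByExpr and Benjamini-Hochberg adjustment over all features tested, called at an adjusted p under 0.05. The 4 DIV7 libraries were fitted alone (19822 genes), and the 20 DIV18 libraries in 8 groups (20940 genes). CPM use TMM-scaled library sizes; TPM are the deposited values summed per gene. DESeq2 1.42.0, other scalings, filters and lengths, a replicate block, and each library left out were tried. On simulated data with 200 genes changed by 1 (log2), 98.5%, 99% and 98% were recovered for the DIV7, averaged KCl and averaged knockout comparisons, over 39819, 41147 and 41147 genes. In these, 9.63%, 5.71% and 6.22% of calls were of unchanged genes. The changed genes were drawn only from those with a higher mean CPM than Neat1, and no shift of the third replicates was simulated. No member called within DIV18 changed by as much as 1 (log2). The recovery therefore does not tell how often changes like those of the members are found.

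The members and gene lists were chosen with earlier results of these data known. All 8 members are described. A transcript is named when it holds at least 10% of its gene's counts in the mean of either library type, and the called ones of smaller share, Rian-204, Rian-213 and Meg3-207, were named after their values were seen, as were the miRNAs shown. List genes are named when called, up to 4 per list and comparison, and the 3 genes most like a member by Pearson's r.

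Replicate numbers paired the KO libraries of vector at rest and under KCl (correlations of deviations 0.17, 0.18 and 0.31), of vector and S586E at rest (0.35, 0.23 and 0.37), and of vector and wild-type Smarcc2 under KCl (0.24, 0.21 and 0.35). They did not pair the DIV7 (0.036), NT (-0.12) or wild-type (-0.066 and -0.11) libraries across states. Standard errors are taken from the quasi-likelihood test and so hold the spread between libraries, while the floor covers counting error only.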

Additional observations from a re-analysis of the deposited data

Results flagged for a closer look

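For 2 of 8 members the response to KCl differed between the ages by the interaction test, where 4.06% of 22459 genes were called (2.99% lower). The DIV7 response minus the averaged DIV18 response was -1.12 (log2, SE 0.31, edgeR adjusted p = 0.043) for Malat1. At DIV7 both of its depolarized libraries were below both resting ones, as for 30.7% of genes. At DIV18 its depolarized libraries were above all resting ones in the NT and wild-type groups, as for 16.7% and 11.3% of genes. With vector, the other group of the average, its states overlapped, at 2435, 3522 and 5667 CPM at rest and 5215, 4682 and 6598 under KCl. The Malat1 call was lost with DESeq2's size factors (adjusted p = 0.051) and with length offsets (adjusted p = 0.13), and against the NT response alone Malat1 was not called (-1.16, adjusted p = 0.16). The difference from the averaged response was -1.54 (SE 0.32, adjusted p = 0.0062) for Neat1. Neat1 was not called against the NT response alone (-1.35, edgeR adjusted p = 0.098). Its short form Neat1-202 held 32.9% of its counts on average at DIV7 and 1.42% at DIV18. For Neat1 the contrast therefore compares unlike mixtures of forms. Library type, age and guide transduction differ with this contrast and cannot be told apart.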

How the results depend on the processing

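Over 37 gene results and 490 alternatives, 426 kept their direction and their side of the threshold, 35 lost a call, 29 gained one and 0 reversed. This total includes results that were not called and could lose no call. Within DIV18, the averaged KCl call of Malat1 was lost in 17 of 24 alternatives. The averaged knockout call was lost in 9 of 19 for Miat and 2 of 19 for Rian, and the resting call of Rian in 2 of 14. Without the filter on low counts more members were called, along with many more genes of the whole table: 1 for KCl in NT, 2 for KCl with vector, 3 for KCl with wild-type Smarcc2 and 3 for the averaged response. In the knockout comparison this setting gave 4 at rest, 2 under KCl and 4 averaged. For wild-type Smarcc2 it gave 4 against vector at rest, 3 averaged and 3 against NT. For S586E against wild type it gave 5, for S586A 2 against wild type and 3 against vector. For the differences of response it gave 1 (vector and NT), 2 (wild type and vector), 5 (DIV7 and averaged DIV18) and 3 (DIV7 and NT), and for DIV7 transcripts 10. Shares of all genes called are not given for this setting or for those below. The member counts therefore describe the processing and are no result about the members.

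The averaged call of Malat1 at DIV18 was lost with library totals alone, with length offsets and with only the compared groups in the fit (0 members each). DESeq2 called 1 member, Gas5, for S586E against wild type and 1, Neat1, for the DIV7 response against that of NT. The DIV7 response against the averaged one gave 1 call with DESeq2's size factors and 1 with length offsets, and against NT 1 with length offsets. Leaving out libraries, the number of members called was 0 to 1 for the averaged KCl response, 0 to 2 for the knockout at rest, 0 to 2 for the knockout averaged, and 2 for the DIV7 response against that of NT without the third replicates.

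With the replicate number as a block, the averaged knockout comparison called 1 member, with Miat at 0.43 (adjusted p = 0.058), the DIV7 response against that of NT called 1, Malat1, DIV7 transcripts went to 0, and the averaged KCl response called 1 transcript, Malat1-201. The block changed no other count of member calls by over 1.5 times. The NT numbers had a negative correlation across states, and with them crossed the block gave 1 member for S586E against wild type (Gas5), 131 genes in all for the averaged KCl response and 2601 for the averaged knockout comparison.

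Neat1 rests on 43 to 162 counts per library at DIV7, which limits its precision, and the division of reads among overlapping transcripts adds error that these tests leave out.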
